A study of Rattus norvegicus with 18 samples.

Results

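The genes described here are the KDEL receptors Kdelr1, Kdelr2 and Kdelr3 and the p24 genes Tmed2, Tmed3, Tmed4, Tmed5, Tmed7, Tmed9 and Tmed10. Every probe set that the platform annotation gives to exactly 1 of these 10 genes was taken, which made 15 of the 31042 probe sets on the array. Expression was measured on 18 Affymetrix rat arrays from INS-1 clone #4S2, a rat insulinoma line in which doxycycline turns on proinsulin C96Y-EGFP, a mutant mouse proinsulin that lacks a cysteine needed for a disulfide bond, joined to a green fluorescent protein. Cultures had received 2 μg/ml doxycycline for 24 h, for 48 h or for 5 days, and untreated control cultures were taken at the same times, with 3 independent experiments in each of the 6 groups. All 18 cultures carried the reverse Tet activator and the transgene, all came from 1 clone that had been sorted for EGFP, and neither cells with normal proinsulin nor cells without the transgene were among these arrays. Effects of doxycycline itself, of EGFP and of the mutant proinsulin therefore cannot be told apart here.

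KDEL receptors are membrane proteins of the Golgi and the intermediate compartment that bind luminal proteins ending in KDEL or a related tail and return them to the endoplasmic reticulum (ER) in COPI vesicles. p24 proteins, encoded by the Tmed genes, are small membrane proteins that form complexes with each other, cycle between ER and Golgi in COPII and COPI vesicles, and carry cargo such as GPI-anchored proteins. Both families serve the early secretory pathway, through which a beta cell passes its proinsulin. In mammals several genes of both families are known targets of the unfolded protein response.

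Signals are given in quantile normalized units and compared only between arrays, never between probe sets. Marker signals were also summed within a list, and such a sum is weighted to the brightest probe sets. A probe set was tested when its mean log2 signal lay in the upper 50% of the array, and 13 of the 15 probe sets, from 9 of the 10 genes, were tested among 15521 in all. Those left out were the single probe set of Tmed5 and the dimmest of 3 for Tmed7. Beta cell markers with a probe set were above the signal filter for 9 of 9 genes, markers of acinar and duct cells for 0 of 8, those of fibroblasts and macrophages for 1 of 9 (Pdgfra) and those of other islet cells for 1 of 5 (Gcg, glucagon). The summed signal of the beta cell list was 77740 to 87070 in doxycycline arrays and 88460 to 96630 in control arrays at 48 h, and its part in the results was not tested. Mafa, a beta cell transcription factor of that list, fell by 1.07 on the log2 scale at 48 h (limma adjusted p = 0.0118). It was the only 1 of the 9 to pass at 48 h. The list median was -0.31, with Ins1 (0.095) and Nkx6-1 (0.17) above 0. The other islet cell list summed to 362.8 to 407.7 units in doxycycline arrays and 1556 to 2164 units in control arrays at 48 h, with Gcg at -2.71 (limma adjusted p = 0.00669), and its part was not tested either. In bulk RNA, more cells expressing a gene and more RNA per cell cannot be told apart. The GAPDH signal at the 3′ end over that at the 5′ end, a measure of RNA integrity, was 2.91 in the library labelled doxycycline 5 days replicate 2 and 1.05 to 1.19 in the other 17. At 5 days the labels of experiment 1 are in doubt, because its ratios ran against those the paper lists for it (Pearson r = -0.985 over 73 probe sets). The ratios of experiments 2 and 3 ran with the listed ones (r = 0.986 and r = 0.982). The log2 ratios of experiment 1 also ran against the mean 48 h ratios (r = -0.46 across 15521 probe sets), while those of experiments 2 and 3 ran with them (r = 0.21 and r = 0.55). The 24 h and 48 h arrays are therefore described first.

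Kdelr3 had the largest change among the KDEL receptors in doxycycline-treated cells. It returns luminal proteins to the ER like the other 2 receptors. At 24 h its signal was 306, 382 and 571 units in the 3 doxycycline arrays, against 180.3, 235 and 285 units in the 3 control arrays of the same experiments. After 48 h the doxycycline arrays read 610.4, 687 and 719 units, against 289, 257 and 275 units in control arrays. No doxycycline array overlapped with a control array at either time, and the 48 h signals stood farther apart than those of 24 h. The doxycycline to control log2 ratio was 0.76, 0.70 and 1.00 in the 3 pairs of 24 h, a fitted log2 fold change of 0.82 (SE 0.09) that missed the threshold (limma adjusted p = 0.0534). At 48 h the ratios were 1.08, 1.42 and 1.39, the fitted change was 1.29 (SE 0.10) and Kdelr3 rose (limma adjusted p = 0.0137). The mean ratio at 48 h was 2.47 ± 0.31 (SD, n = 3 pairs).

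Kdelr2, the KDEL receptor of the same family that also cycles between Golgi and ER, had a smaller difference that did not pass the test. Its 24 h signal was 10571, 11218 and 13601 units in doxycycline arrays, against 9223, 8721 and 10997 units in control arrays. The 48 h signal was 11861, 13534 and 13994 units in doxycycline arrays, against 9203, 10706 and 10924 units in control arrays. The groups overlapped at 24 h but not at 48 h. The fitted log2 fold change was 0.29 (SE 0.07) at 24 h and 0.35 (SE 0.07) at 48 h, and neither passed (limma adjusted p = 0.201 and 0.0661). All 6 pairs had a positive ratio.

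Kdelr1, whose product was the first mammalian KDEL receptor to be described, had a difference of similar size to that of Kdelr2. At 24 h the doxycycline arrays read 6374, 6436 and 6464 units and the control arrays 5937, 5091 and 5086 units. After 48 h the doxycycline arrays read 6661, 5816 and 6344 units and the control arrays 5098, 5149 and 5323 units. Every doxycycline array was above every control array of its time, and control experiment 1 at 24 h stood nearest to the doxycycline arrays. The fitted log2 fold changes were 0.26 (SE 0.08) and 0.27 (SE 0.08), short of the threshold (limma adjusted p = 0.268 and 0.126).

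**Figure D1:**
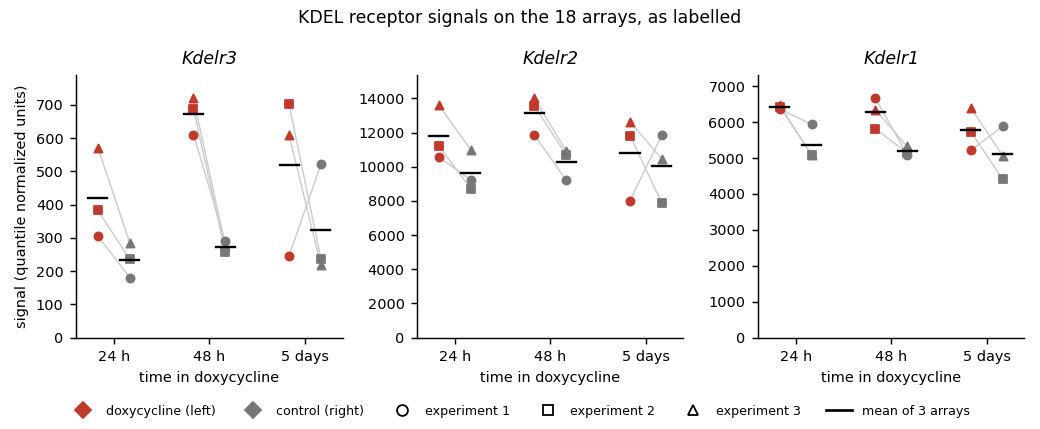
Signals of Kdelr3, Kdelr2 and Kdelr1 (vertical axis, quantile normalized units from 0) by time in doxycycline, with doxycycline arrays left (red) and control arrays right (grey), 1 marker shape per experiment, thin lines joining the pair and black bars for the mean of 3 arrays. The 48 h doxycycline signals of Kdelr3, 610.4 to 719 units, lie apart from the control signals of 257 to 289 units, and experiment 1 at 5 days runs the other way from the other pairs.

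Tmed3 had the largest change among the p24 genes. It belongs to the gamma group of p24 proteins. At 24 h its signal was 1867, 2504 and 3261 units in doxycycline arrays, against 1131, 1382 and 1926 units in control arrays. At 48 h it was 3182, 3208 and 3491 units in doxycycline arrays, against 1656, 1482 and 1769 units in control arrays. The 24 h groups overlapped, since control experiment 3 was above doxycycline experiment 1, yet within each pair the doxycycline array was higher. The 24 h log2 ratios were 0.72, 0.86 and 0.76, a fitted change of 0.78 (SE 0.07) that passed with the pairs as a block (limma adjusted p = 0.0439). Without the block the adjusted p of the same change was 0.793. At 48 h the ratios were 0.94, 1.11 and 0.98, with a fitted change of 1.01 (SE 0.08), and Tmed3 rose (limma adjusted p = 0.0137), with a mean ratio of 2.02 ± 0.13 (SD, n = 3 pairs).

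Tmed9, an alpha-group p24 protein, rose at 48 h on both of its probe sets. On the brighter probe set the 24 h doxycycline signals were 6509, 8547 and 8734 units, against 4287, 5323 and 5619 units in control arrays. The 48 h doxycycline signals were 9247, 8471 and 8443 units, against 5881, 5737 and 5307 units in control arrays. The groups did not overlap at either time. The fitted log2 fold change was 0.64 (SE 0.07) at 24 h, just short of the threshold (limma adjusted p = 0.0546), and 0.63 (SE 0.07) at 48 h (limma adjusted p = 0.0272). On the dimmer probe set the 48 h signals were 3385, 3696 and 2596 units in doxycycline arrays and 2451, 2294 and 1745 units in control arrays. The fitted change of that probe set was 0.50 (SE 0.08) at 24 h (limma adjusted p = 0.100) and 0.58 (SE 0.08) at 48 h (limma adjusted p = 0.0366).

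Tmed2 and Tmed10 encode the beta and delta members of the p24 complexes, through which coat proteins are recruited. Tmed2 read 14811, 14912 and 15066 units in 48 h doxycycline arrays, against 11959, 12350 and 12328 units in control arrays. Its log2 fold change was 0.20 (SE 0.07) at 24 h and 0.29 (SE 0.07) at 48 h (limma adjusted p = 0.299 and 0.0900). Its second probe set gave 0.23 and 0.26 (limma adjusted p = 0.263 and 0.119). The groups did not overlap on either probe set at either time, although none of these tests passed.

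Tmed10 read 3858, 3485 and 3511 units in 48 h doxycycline arrays, against 3215, 2870.4 and 2933 units in control arrays. The log2 fold change was 0.28 (SE 0.07) at 24 h and 0.27 (SE 0.07) at 48 h (limma adjusted p = 0.204 and 0.103). Its groups did not overlap at either time. The 48 h log2 ratios of the 3 pairs lay between 0.26 and 0.28.

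Tmed7, a gamma-group protein like Tmed3, has 3 probe sets that did not give the same picture. The brightest read 7198, 5721 and 5897 units in 48 h doxycycline arrays, against 5369, 4825 and 4445 units in control arrays, with no overlap. Its log2 fold change was 0.36 at both 24 h and 48 h (SE 0.07 and 0.08, limma adjusted p = 0.144 and 0.0773). The second probe set gave 0.047 at 24 h and 0.081 at 48 h (limma adjusted p = 0.849 and 0.536), with groups that overlapped. The dimmest was not tested, and its log2 ratio averaged -0.032 at 24 h and 0.48 at 48 h, with signals between 51.5 and 113 units in those doxycycline arrays and between 61.3 and 93.4 units in the control arrays.

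Tmed4, a second alpha-group protein beside Tmed9, was not higher. Its brighter probe set read 1996, 2069 and 2109.5 units in 48 h doxycycline arrays, against 2341, 2178 and 2120.5 units in control arrays, so that every doxycycline array was lower, the closest pair by a few units. The log2 fold change was -0.098 at 24 h and -0.10 at 48 h (SE 0.07 and 0.08, limma adjusted p = 0.581 and 0.479). The 95% interval at 48 h, -0.311 to 0.104, ended below the fitted change of each of the other 8 tested genes on its brightest probe set, but not below the 0.081 of the second Tmed7 probe set. It overlapped with the 48 h intervals of Kdelr1 (0.0677 to 0.475) and Tmed10 (0.0901 to 0.445). The second probe set gave -0.059 and -0.053, with overlap at both times.

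Tmed5, another gamma-group gene, had dim signals. At 24 h it was listed at 123.2, 89.0 and 115.9 units in doxycycline arrays, against 90.4, 123.2 and 114.2 units in control arrays. At 48 h it was listed at 92.8, 91.2 and 79.97 units in doxycycline arrays, against 129, 128 and 106.6 units in control arrays. The 48 h groups did not overlap, with lower signals after doxycycline and a mean log2 ratio of -0.46, but the probe set was below the signal filter and was not tested.

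**Figure D2:**
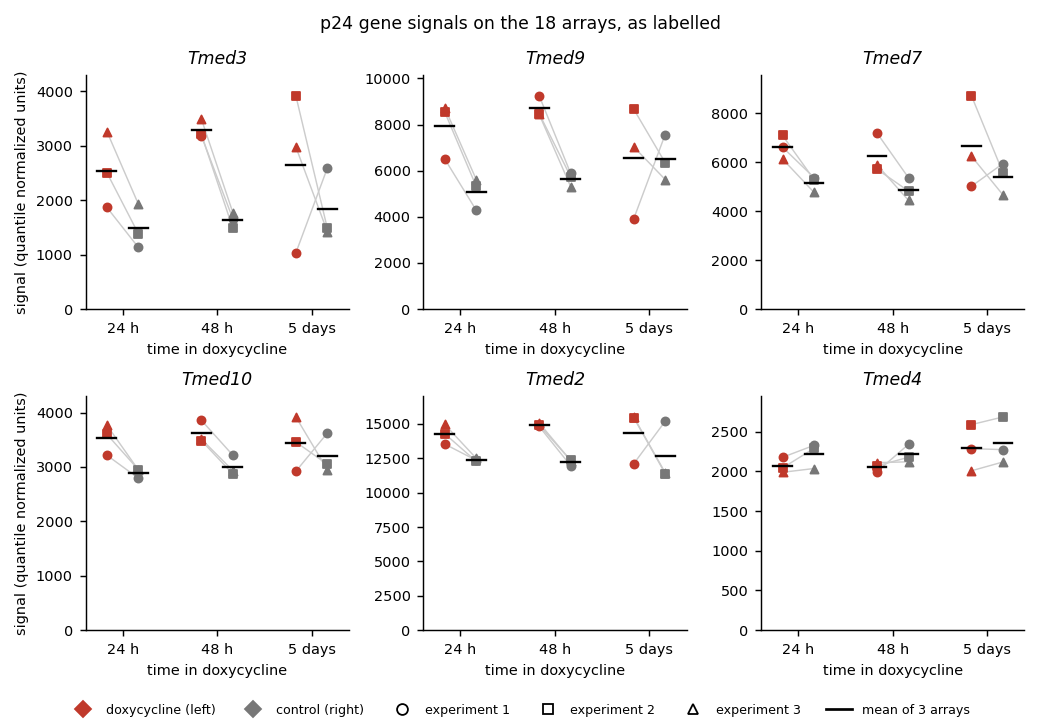
Signals of Tmed3, Tmed9, Tmed7, Tmed10, Tmed2 and Tmed4, each on its brightest probe set (vertical axis, quantile normalized units from 0), by time in doxycycline, with doxycycline arrays left (red) and control arrays right (grey), lines joining pairs and black bars for means of 3 arrays. At 48 h the Tmed3 doxycycline signals of 3182 to 3491 units lie above the control signals of 1482 to 1769 units, while Tmed4 lies within 1996 to 2341 units in both groups.

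Across the 13 tested probe sets, 1 rose at 24 h (Tmed3) and 0 fell. Over all 15521 probe sets 0.193% rose and 0.0129% fell at 24 h by the same test. At 48 h 4 of 13 rose, from Kdelr3, Tmed3 and Tmed9, and 0 fell, where 2.33% of all probe sets rose and 1.19% fell. The genes were chosen with earlier results of these data known, and the paper lists Kdelr3 and Tmed3 as induced on these arrays. The counts here and in the next paragraph therefore describe the genes and are no independent test. At an unadjusted p under 0.05 limma gave 10 higher and 0 lower of 13 at 24 h, where 7.75% of all probe sets were higher and 6.94% lower, and again 10 and 0 at 48 h, where 12.2% were higher and 12.5% lower. After adjustment the methods' t-test called 0 of 13 at 24 h, where 0% of all were called higher, and 3 of 13 higher at 48 h (Kdelr3, Tmed2 and Tmed3, with Tmed9 at an adjusted p of 0.0505), where 0.78% of all were, and it called 0 of 13 lower at either time. Leaving out any 1 of the 3 experiments ended all 4 of the 48 h calls, with an adjusted p for Kdelr3 between 0.0688 and 0.116 and log2 fold changes between 1.23 and 1.40 for Kdelr3 and between 0.96 and 1.05 for Tmed3. Over the whole array the number that rose at 48 h, 361, was then 0, 29 and 17 without experiments 1, 2 and 3, and it was 0 when dim probe sets were tested too and when all 18 arrays were fitted together. With the 12 arrays of 24 h and 48 h in 1 limma fit, 4 of 13 passed at 24 h, where 1.09% of all probe sets rose, and 9 of 13 passed at 48 h, where 5.64% of all rose. Those 9 probe sets were from Kdelr2, Kdelr3, Tmed2, Tmed3, Tmed7, Tmed9 and Tmed10.

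Counted without a test, 7 of 13 probe sets had every doxycycline array above every control array at 24 h, against 5.03% of all probe sets, and 10 of 13 at 48 h, against 11.3% of all. A higher signal in all 3 pairs was found for 10 of 13 at 24 h, against 17.8% of all, and for 11 of 13 at 48 h, against 22.8% of all. The 2 exceptions at 48 h were the probe sets of Tmed4. The median log2 fold change of the 9 tested genes, each on its brightest probe set, was 0.29 at 24 h and 0.35 at 48 h, where the medians of all probe sets were -0.0083 and -0.011.

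**Figure D3:**
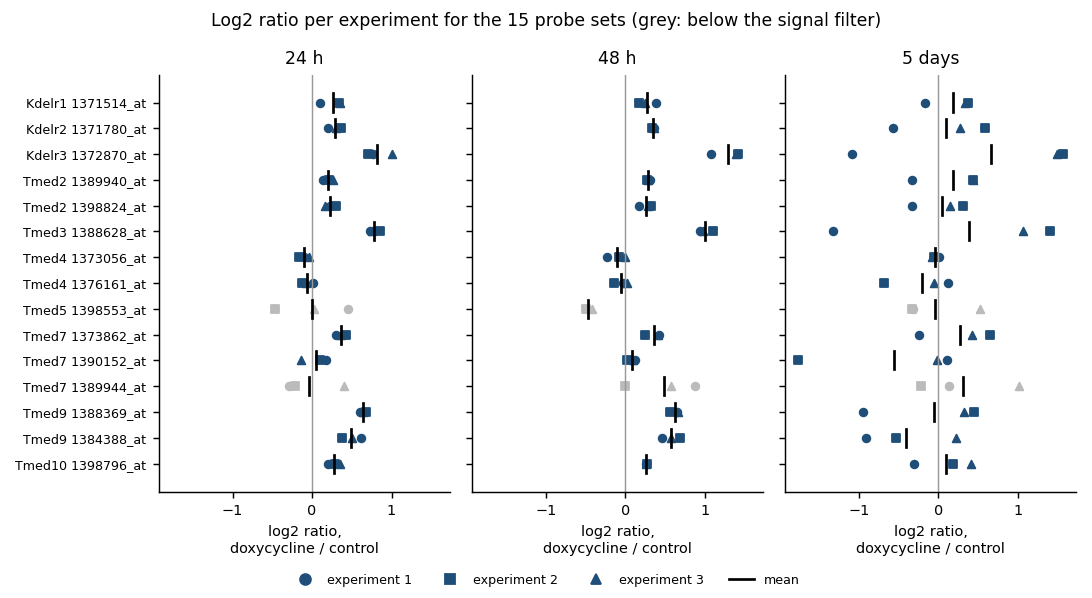
Log2 ratio of doxycycline to control (horizontal axis) for each of the 15 probe sets (rows) with a panel for each time, 1 marker per experiment, a black bar for the mean, grey markers for the 2 probe sets below the signal filter. At 48 h the Kdelr3 ratios of 1.08 to 1.42 and the Tmed3 ratios of 0.94 to 1.11 lie farthest to the right, and at 5 days experiment 1 lies left of 0 for most genes.

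The genes differed from each other in the size of the change. Log2 ratios of the 9 tested genes, each on its brightest probe set, were compared in all 36 pairings of genes over the 6 experiments at 24 h and 48 h, with an exact two-sided sign-flip permutation test whose smallest possible p is 0.0312 and with Benjamini-Hochberg adjustment over the 36. In 27 of the 36 the difference had the same sign in all 6 experiments and an exact adjusted p of 0.0417. The ratio of Kdelr1 minus that of Kdelr3 averaged -0.79 ± 0.33, and that of Kdelr2 minus that of Kdelr3 averaged -0.74 ± 0.28 (SD, n = 6, exact permutation test, adjusted p = 0.0417 for both). Kdelr1 and Kdelr2 differed by -0.054 ± 0.079, with values between -0.16 and 0.039 and an exact adjusted p of 0.205, so no difference was resolved between them.

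Among the p24 genes, Tmed3 exceeded Tmed9 by 0.26 ± 0.16 and Tmed9 exceeded Tmed10 by 0.36 ± 0.061 (SD, n = 6, exact permutation test, adjusted p = 0.0417 for both). Tmed4 minus Tmed9, the alpha-group pair, averaged -0.74 ± 0.10, and Tmed3 minus Tmed7, the gamma-group pair, averaged 0.54 ± 0.18, with the same exact adjusted p. Kdelr3 exceeded Tmed3 in 5 of 6 experiments by 0.16 ± 0.20, with values between -0.16 and 0.41 and an exact adjusted p of 0.145. In the order of mean change the neighbours Tmed7, Kdelr2, Tmed10, Kdelr1 and Tmed2 were separated by tested differences only for Kdelr2 over Tmed2 (0.075 ± 0.035) and Tmed7 over Kdelr1 (-0.094 ± 0.070 for Kdelr1 minus Tmed7), both with the exact adjusted p of 0.0417. Other probe sets were compared without a test, after seeing the data. On the second Tmed7 probe set the order turned, with Tmed7 minus Kdelr1 at -0.20 ± 0.18 and positive in 1 of 6 experiments, and on the second Tmed2 probe set Tmed2 minus Kdelr2 was -0.074 ± 0.080 and positive in 1 of 6. These tests treat the 24 h and 48 h experiments as 6 independent pairs, though the paper describes 3 independent experiments. Doxycycline 24 h replicate 2 and doxycycline 48 h replicate 1 were each other's closest array at the other time (Pearson r = 0.967). The control arrays with those numbers were too (r = 0.966), and that 48 h doxycycline array was also closest to doxycycline 24 h replicates 1 and 3. In each treatment replicate 2 of 24 h was likewise closest to all 3 arrays of 48 h. All these closest matches lay between r = 0.956 and r = 0.967. If arrays of the 2 times are related, the exact p-values are too small. How evenly each probe set responds to a given change in RNA was not tested.

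The 48 h minus 24 h difference in the doxycycline effect was 0.47 on the log2 scale for Kdelr3 (SE 0.135, 95% interval 0.16 to 0.79) and 0.23 for Tmed3 (SE 0.10, 95% interval 0.0058 to 0.46), tested as a contrast between the times in the 12-array limma fit. Neither difference passed over all probe sets (limma adjusted p = 0.663 and 0.740). The difference for Tmed9 was -0.012 (95% interval -0.22 to 0.19) and that for Kdelr1 was 0.0094 (95% interval -0.25 to 0.27). No probe set on the array passed this contrast, in which 520 were larger and 516 smaller at 48 h at an unadjusted p under 0.05.

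At 5 days the arrays are given as labelled. Kdelr3 read 246, 702 and 608 units in the libraries labelled doxycycline and 521, 236 and 217 units in those labelled control. Tmed3 read 1031, 3916 and 2977 units in the libraries labelled doxycycline and 2590.0, 1481 and 1424 units in those labelled control. In experiments 2 and 3 both genes were higher in the doxycycline library, with log2 ratios of 1.57 and 1.49 for Kdelr3 and 1.40 and 1.06 for Tmed3, and in experiment 1 they were lower, at -1.08 and -1.33.

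The same opposite sign in experiment 1 was seen for Kdelr1 (-0.17, against 0.38 and 0.34), Kdelr2 (-0.57, against 0.58 and 0.27), Tmed10 (-0.31, against 0.18 and 0.41) and the brighter probe sets of Tmed2, Tmed7 and Tmed9. The dimmer Tmed9 probe set read -0.92, -0.54 and 0.22 in experiments 1, 2 and 3. The library labelled doxycycline 5 days replicate 2, with the high GAPDH ratio, read 272 units on the second Tmed7 probe set, where its control read 923 units and the other 2 libraries labelled doxycycline read 875 and 803 units. As labelled, 0 of 13 probe sets passed in either direction, and over all probe sets 0% rose (limma). The count was also 0 of 13 at an unadjusted p under 0.05, where 1.11% of all probe sets were higher, and by the methods' t-test. With the labels of experiment 1 exchanged in the 5-day arrays alone, 0 of 13 passed and 0% of all probe sets did (limma), the lowest adjusted p of the 13 being 0.715, while 6 of 13 were higher at an unadjusted p under 0.05, against 3.81% of all. With the labels exchanged and all 18 arrays in 1 fit, 6 of 13 rose, from Kdelr2, Kdelr3, Tmed2, Tmed3, Tmed7 and Tmed9, where 1.83% of all probe sets rose. In that fit the log2 fold change was 1.38 (SE 0.12) for Kdelr3 and 1.27 (SE 0.09) for Tmed3 (limma adjusted p = 0.0029 and 0.00271), and Tmed9 passed on its brighter probe set (0.58) but not on the dimmer (0.20, limma adjusted p = 0.595). The exchange was prompted by experiment 1 running against the listed and the 48 h ratios. Counts and p-values after the exchange are therefore no independent support for a 5-day rise. The 2-fold rule, counted without a test, asks for doubled signal in 2 of the 3 pairs. At 24 h 0 of the 13 probe sets met it (0.29% of all), and at 48 h that of Kdelr3 did (0.509% of all). At 5 days as labelled those of Kdelr3 and Tmed3 met it (0.296% of all). By a rule of this kind the paper also lists Kdelr3 for 24 h and Tmed3 for 48 h. Here the log2 ratios were 0.76, 0.70 and 1.00 for Kdelr3 at 24 h, and 0.94, 1.11 and 0.98 for Tmed3 at 48 h. The paper used GeneSpring software, whereas the ratios here are from quantile normalized signals. Whether this accounts for the different calls was not tested.

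Promoter windows were examined after these results were known, in which 3 of the genes passed at 48 h in the fit of that time alone and 7 in the 12-array fit. RefSeq windows of rat assembly GRCr8, from 250 bases before to 50 bases after the annotated start, were matched by gene for 9 of the 10 genes, all but Kdelr2. The sequence before the start of Kdelr3, the gene with the largest change, is printed first (chr7:112959382-112959631, plus strand), with matches to the core of the unfolded protein response element (UPRE), ACGTGG on either strand, in capitals.
Kdelr3: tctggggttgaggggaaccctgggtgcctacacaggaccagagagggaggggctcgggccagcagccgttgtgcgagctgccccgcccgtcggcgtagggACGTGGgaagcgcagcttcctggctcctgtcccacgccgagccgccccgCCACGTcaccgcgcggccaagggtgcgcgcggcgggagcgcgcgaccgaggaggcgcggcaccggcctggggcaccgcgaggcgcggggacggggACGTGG

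The 30 bases around the matches in the other p24 promoters are shown on the gene's strand to set their surroundings side by side. They lie at chr8:99129236-99129265 for Tmed3, chr17:9039333-9039362 for Tmed9, chr18:41512300-41512329 for Tmed7, chr6:110757788-110757817 for Tmed10, and chr12:37722753-37722782 and chr12:37722654-37722683 for the upstream and the downstream match of Tmed2, all on the minus strand of GRCr8.
Tmed3: gctgagctcgcgCCACGTctcttcggaggg
Tmed9: ctccgcaggtctACGTGGctcggcagtctg
Tmed7: cctcacgctcttCCACGTcctcactacaac
Tmed10: tagaggcgagtcACGTGGgtttccccggtt
Tmed2 upstream: gtgatcatcaacCCACGTcgaagggcttga
Tmed2 downstream: cgtgcgtccgttACGTGGcagctgtcggct

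The core ACGTGG was found in 6 of the 9 windows, those of Kdelr3, Tmed2, Tmed3, Tmed7, Tmed9 and Tmed10, and in 8.10% of all 27457 rat windows and 11.7% of the 7655 windows of tested genes. Kdelr3 held 3 matches, whose first bases on its strand lie at -150, -101 and -6, counting the start as 0. The middle one extends to the full UPRE, TGACGTGG, which was in 1 of the 9 windows, in 0.637% of all and in 0.993% of those of tested genes. No match to the core was found in the windows of Kdelr1, Tmed4 and Tmed5. In Tmed3 the match lay downstream of the start, at bases 24 to 29.

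Other motifs were searched on both strands in the same way. The ER stress response element (ERSE), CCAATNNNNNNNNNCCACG, was in 0 of the 9 windows and 0.0765% of all, and ERSE-II, ATTGGNCCACG, was in 0 of 9 and 0.0546% of all. The site of ATF4 and CHOP named CARE, TGATGNAA, was in 0 of 9 and 3.82% of all, and the CRE-type site TGACGT, which the UPRE contains, was in 1 of 9 and 8.22%. Of the ERSE boxes taken singly, CCACG, which overlaps the UPRE core, was in 7 of 9 and 32.5% of all, and CCAAT was in 5 of 9 and 37.7%. Among the 7655 windows of tested genes the shares were 0.183% for ERSE, 0.131% for ERSE-II, 1.78% for CARE and 12.8% for the CRE-type site. There CCACG was in 49.3% and CCAAT in 38.3%, so both single boxes are common in windows of this kind. A match describes these letters only, and no binding was measured here.

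**Figure D4:**
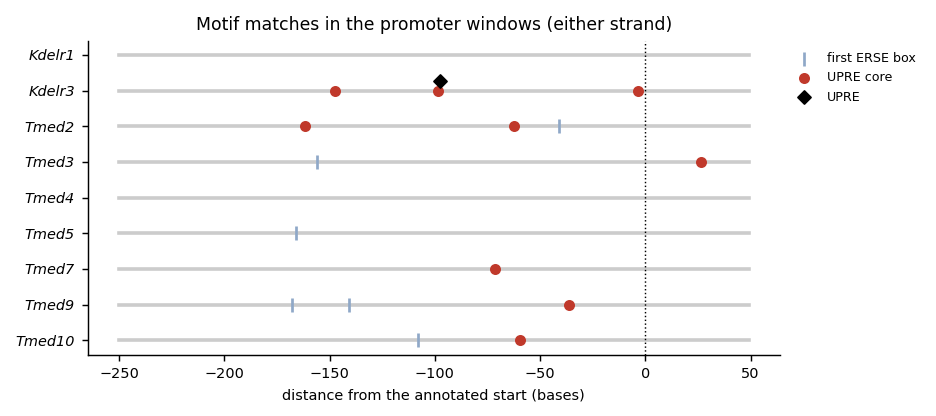
Positions of motif matches on either strand in the promoter windows of 9 genes (rows), in bases from the annotated start (horizontal axis, dotted line at 0), with circles for the UPRE core, a diamond for the full UPRE and blue ticks for the first box of the ERSE. Kdelr3 carries 3 core matches and the only full UPRE, and Kdelr1 and Tmed4 carry none of the 3 motifs.

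The likeness of other genes' patterns was ranked by Pearson r of log2 ratios among 9076 genes. Over the 9 experiments as labelled, Kdelr3 was closest to Eif2ak3, the ER stress sensor PERK (0.995), then to Ggcx (0.983), Ssr4 (0.982), Mcfd2 (0.978) and Cnpy2 (0.977). The ranks changed with the doubtful 5-day experiment 1. With its sign turned, Blvrb was closest (0.944), Eif2ak3 ranked 8 (0.908) and Mcfd2 ranked 1702 (0.468). Over the 6 experiments of 24 h and 48 h Syngr2 and Mettl26 were closest (0.993 each). There Ssr4 ranked 17 (0.974), Eif2ak3 25 (0.972), Ggcx 105 (0.929), Cnpy2 167 (0.908) and Mcfd2 181 (0.905).

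Tmed3 was closest as labelled to Srpra, Mcfd2 and Rpn1 (0.992 each), then to Sec63 and Dnajb11 (0.991 each). With experiment 1 turned, Sec63, a component of the ER translocon, ranked 3 (0.957), and Srpra, Mcfd2, Rpn1 and Dnajb11 ranked 22 to 72 (0.859 to 0.902). Over the 6 experiments of 24 h and 48 h other genes were closest, first Alg5 and Inpp1 (0.977 each). There Srpra ranked 764 (0.717), Mcfd2 187 (0.862), Rpn1 1753 (0.519), Sec63 123 (0.888) and Dnajb11 499 (0.774). Kdelr3 and Tmed3 correlated with each other at 0.975 as labelled, 0.678 with experiment 1 turned and 0.817 over the 6. These values are a description, since experiments of 1 time share their treatment, and the settings other than as labelled were added after seeing the data.

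Proteins that KDEL receptors retrieve were followed as a list of 23 luminal ER proteins with a KDEL-type tail, of which 19 were tested. The list was written from background knowledge after earlier results of these data were known. It includes genes that the paper lists as induced on these arrays, such as Sdf2l1, Manf (there Armet), Pdia4 and Erp44. The counts below therefore describe the list and are no independent test. At 24 h 2 of the 19 rose and at 48 h 12 of the 19 rose, and 0 fell at either time, where 0.193% and 2.33% of all probe sets rose. Their median log2 fold change was 0.44 at 24 h and 0.63 at 48 h, where those of all probe sets were -0.0083 and -0.011. The largest at 48 h were Sdf2l1 (1.86), Pdia4 (1.23), Manf (1.13), Hyou1 (0.88), Rcn1 (0.78) and Erp44 (0.70), among them disulfide isomerase Pdia4, the ER Hsp70 relative Hyou1 and Erp44, which holds unassembled proteins back in the early secretory pathway.

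Other genes of ER-Golgi traffic were followed on 5 further lists. The p24 genes Tmed1 and Tmed8 had log2 fold changes of -0.37 and -0.26 at 48 h, and neither passed (limma adjusted p = 0.0798 and 0.106). Of 17 other cargo receptors tested, 3 rose at 48 h, namely Mcfd2 (0.55, on a probe set shared among transcripts), Surf4 (0.51) and Yipf5 (0.48), with a list median of 0.12. Among 14 genes of the COPI coat, which carries KDEL receptors and p24 proteins back to the ER, 1 rose (Arcn1, the delta subunit, 0.48) with a median of 0.25. Among 13 of the COPII coat 1 rose (Sec23b, 0.67) with a median of 0.31. Of 14 Golgi genes 3 rose, the tethers Golgb1 (0.67) and Uso1 (0.53) and the SNARE Bet1 (0.46), with a median of 0.30. Of the 60 genes tested on these 5 lists, 0 passed at 24 h, and at 48 h 8 rose and 0 fell (limma). By the same test 0.193% of all probe sets rose at 24 h, and 2.33% rose and 1.19% fell at 48 h. At an unadjusted p under 0.05, 24 of the 60 were higher and 2 lower at 24 h, and 33 were higher and 4 lower at 48 h. The shares of all probe sets at that p were 7.75% higher and 6.94% lower at 24 h, and 12.2% and 12.5% at 48 h. These lists too were chosen with earlier results of the data known, so their counts are no independent test.

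**Figure D5:**
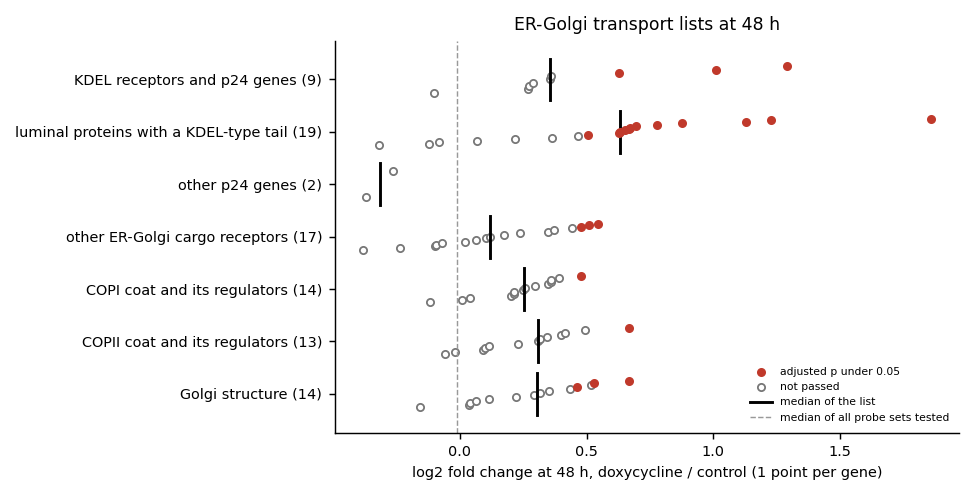
Log2 fold change at 48 h (horizontal axis, doxycycline over control), 1 point per gene, for the KDEL receptors and p24 genes and 6 related lists (rows, number of genes tested in brackets), red where the adjusted p was under 0.05, with a black bar for the list median and a dashed line for the median of all probe sets tested. The list median was 0.35 for the KDEL receptors and p24 genes, 0.63 for proteins with a KDEL-type tail, and 0.12 to 0.31 for 4 lists of coat, receptor and Golgi genes, with the 2 other p24 genes below 0.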

How the data were processed

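Labelled cRNA from INS-1 clone #4S2 was run by the authors on Affymetrix Rat Genome 230 2.0 arrays, 1 per experiment and group. The authors deposited linear signal intensities, scaled so that the 2% trimmed mean of each array was near 500.1, and for the program that computed them the sources used here name none. Of 31099 probe sets, 57 controls were left out.

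After quantile normalization of the intensities, a floor was set at the 10th percentile (5.99) and log2 was taken. The 15521 probe sets in the upper 50% of mean signal were tested with limma (version 3.58.1, R 4.3.3) at each time, same-numbered arrays as a block, with Benjamini-Hochberg adjustment over all of them at 0.05. The pairing follows the study's ratios per experiment, and paired arrays deviated together from their group means (correlations 0.109 to 0.667). Time differences were contrasts in a fit of the 24 h and 48 h arrays. The fitting procedure was run on simulated 24 h and 48 h arrays with planted changes, where only the mean fitted size was checked. Recovery and false calls were held to no bound there. The number of arrays limits the precision.

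Genes were named from the platform annotation, which gives 1 gene to 20826 probe sets, several to 436 and none to 9780. A gene with several probe sets was represented by the brightest. All 10 genes were named, with the up to 3 genes of each related list that passed at 48 h with the largest change and the 5 genes most like Kdelr3 and Tmed3. A rule to find KDEL-tailed proteins by sequence was not applied, and 23 known ones were listed instead, of which the 6 with the largest change were named. The genes and lists were chosen with earlier results of these data known, and the tailed list and the motifs after that.

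The 5-day ratios of experiment 1 correlated at -0.985 with those the paper lists for it over 73 probe sets, and those of experiments 2 and 3 at 0.986 and 0.982, so the labels of experiment 1 may be exchanged. Promoter sequences are from RefSeq, assembly GRCr8.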

Additional observations from a re-analysis of the deposited data

How the results depend on the processing

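Over 107 gene-level values at 24 h and 107 at 48 h under other settings, 95 and 81 kept their direction and their side of the threshold, 5 and 10 newly passed, 7 and 16 no longer passed, and none changed sign. Several settings, such as the fit without the block, cannot change a log2 fold change or its sign. At 24 h Tmed3 alone passed in the main fit, so most of the 95 values did not pass in either fit. All 7 losses at 24 h were of Tmed3, which passed in 6 of 13 settings, the main one included. At 48 h Kdelr3 passed in 7 of 12, Tmed3 in 8 of 13 and Tmed9 in 7 of 13. The count of probe sets that rose at 24 h was 1. It was 0 without the replicate block, 0 in the fit of all 18 arrays, 0 with dim probe sets tested, 0 by the methods' t-test after Benjamini-Hochberg and 0 by the 2-fold rule. It was 4 in the fit of the 24 h and 48 h arrays and 5 in the upper 25% of signal, where Kdelr3 is no longer included. At 48 h the count was 4. It was 3 without the replicate block, 0 in the fit of all 18 arrays, 0 with dim probe sets tested, 9 in the fit of the 24 h and 48 h arrays, 9 in the upper 25% of signal and 1 by the 2-fold rule. The fit of all 18 arrays includes the doubtful 5-day libraries, and otherwise the cause was not tested. Leaving out 1 experiment in turn gave 0 at each time, in fits with fewer samples. At 5 days the count of 0 stayed 0 with the experiment 1 labels exchanged in the 5-day arrays, and was 6 with them exchanged in the fit of all arrays, which changes 2 choices, and 2 by the 2-fold rule.

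At 5 days the log2 change of Tmed9 (-0.059) changed sign to 0.58 with exchanged labels, both in the 5-day arrays (adjusted p = 0.715) and in all 18 (0.0414), and was 0.0016 without quantile normalization, where that of Tmed4 was 0.020. Leaving out 1 experiment gave -0.31 to 0.39 for Tmed9, -0.14 to 0.43 for Kdelr2, -0.13 to 1.23 for Tmed3 and -0.064 to 0.30 for Tmed10. For the 48 h minus 24 h difference, no quantile normalization gave 0.0072 for Tmed7, 0.031 for Tmed9 and 0.0048 for Tmed10. Leaving out 1 experiment gave -0.13 to 0.095 for Kdelr1, -0.053 to 0.059 for Tmed4, -0.066 to 0.084 for Tmed7, -0.044 to 0.042 for Tmed9 and -0.052 to 0.027 for Tmed10. The cause was not tested, and none of these differences passed.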
